A study of Homo sapiens with 10 samples.

Results

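The 9 genes described here encode proteins of the epithelial tight junction and were followed in RNA-seq libraries of MCF10A, an immortalized and nontransformed human mammary epithelial cell line. The genes were chosen by symbol as CLDN1, CLDN4, CLDN7, OCLN, MARVELD2, MARVELD3, TJP1, TJP3 and F11R, and all 9 were found among the 26256 genes counted in the first experiment and the 55736 counted in the second. The first experiment set 2 libraries of untreated parental MCF10A cells against 2 of MCF10A cells carrying the HRas oncogene G12V. The second set 3 libraries of parental cells given 10 µM Nutlin-3a for 4 h against 3 given the solvent DMSO for 4 h. The oncogene was brought in by a lentivirus together with a GFP vector, and carriers were selected with hygromycin, whereas no virus or selection is named for the parental cells. The paper reports that G12V cells first stopped growing and resumed growth after a few weeks. Effects of the oncogene, the virus, the selection and this arrest and outgrowth cannot be told apart. The sources used here do not say whether the G12V cells were a pool or 1 clone. Nutlin-3a blocks the binding of MDM2 to p53 and so stabilizes p53.

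Tight junctions seal the space between neighbouring epithelial cells near their apical border. Claudins form the paired strands that set which ions and solutes may pass, the MARVEL proteins occludin, tricellulin and MARVELD3 lie in or beside these strands, and junctional adhesion molecules join cells before the strands assemble. Zonula occludens proteins bind the cytoplasmic tails of these membrane proteins and tie them to actin, and junction genes of this kind are commonly switched down when epithelial cells take on mesenchymal traits.

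Total counts were 21538593 to 23683975 per library in the first experiment and 15453226 to 17378734 in the second. The labels were checked on genes they bear on. Levels are given as CPM, the reads of a gene scaled to a common library total. HRAS stood at 69.3 ± 4.77 CPM (SD, n = 2) in MCF10A and 573 ± 82.0 CPM in G12V (n = 2), and the p53 target CDKN1A rose from 654 ± 26.7 CPM in DMSO to 2916 ± 375 CPM in Nutlin-3a (n = 3 each). The epithelial label was checked on 11 markers, whose summed level was 9919 to 13476 CPM in MCF10A, 1945 to 2798 CPM in G12V, and 6072 to 8726 CPM in the second experiment. Of 10 epithelial markers tested in G12V, 7 were lower and none was higher, and the falls were uneven. The log2 fold change was -8.81 for CDH1, -11.8 for KRT14, -11.0 for KRT17 and -10.0 for TP63. These rest on few reads in G12V, such as 2 and 3 for KRT14. It was -2.84 for EPCAM, -1.96 for KRT5 and -1.93 for ITGA6. KRT8 at 0.18, KRT18 at -0.71 and ITGB4 at -2.34 were not called. Summed fibroblast markers stayed within 37.5 to 64.9 CPM in MCF10A and 53.4 to 60.1 CPM in G12V with COL3A1 at 0, although LUM of that list was called higher (1 and 0 reads in MCF10A, 28 and 27 in G12V). Endothelial markers summed to 8.68 to 33.0 and 9.92 to 15.3 CPM, and leukocyte markers to 19.7 to 38.6 and 23.3 to 41.1 CPM with AIF1 at 0. The part of the epithelial marker difference in the values that follow was not tested, and in bulk RNA fewer cells of a type and less RNA per cell cannot be told apart.

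Promoter windows of members that moved together in G12V are shown here because they differ in the sequences they hold. The windows came from RefSeq on GRCh38.p14, ran from 250 bases before to 50 bases after a gene's start, and were found for 7 of the 9 genes, 13 windows in all. They were searched on both strands for the E-box CACCTG, a sequence bound by repressors such as SNAI1 and ZEB1, for the AP-1 site TGANTCA, bound by FOS and JUN proteins, and for the p53 half-site. The E-box occurred in 5 of the 13 windows, belonging to CLDN7, OCLN, TJP1 and TJP3, against 20.6% of all 35116 windows. The AP-1 site occurred in 1 window, that of CLDN4, against 7.71% of all windows, and the p53 half-site in 3, of TJP1 and TJP3, against 6.63%. The windows of CLDN1 and MARVELD2 held none of the 3 motifs. The 250 bases before the start are printed below 5′ to 3′ on the gene's own strand with matches in capitals, for CLDN4 (chr7:73830746-73830995, plus strand, AP-1 sites), CLDN7 (chr17:7262479-7262728, minus strand, E-boxes) and OCLN (chr5:69492297-69492546, plus strand, E-box). Where a gene had several windows, the stretch shown is one with the most matches before the start. CRB3 (chr19:6464021-6464270, plus strand, E-boxes), a polarity gene described further on, is added because its window held 5 E-boxes. It was picked from the 61 other junction genes listed below, of which it also had the largest fall in G12V. Windows of the others are not shown, and a link between E-boxes and level was not tested.
CLDN4: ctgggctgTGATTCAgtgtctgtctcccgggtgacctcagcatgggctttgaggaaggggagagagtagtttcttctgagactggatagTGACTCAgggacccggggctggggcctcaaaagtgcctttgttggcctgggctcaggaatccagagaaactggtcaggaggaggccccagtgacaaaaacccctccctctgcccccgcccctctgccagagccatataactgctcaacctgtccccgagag
CLDN7: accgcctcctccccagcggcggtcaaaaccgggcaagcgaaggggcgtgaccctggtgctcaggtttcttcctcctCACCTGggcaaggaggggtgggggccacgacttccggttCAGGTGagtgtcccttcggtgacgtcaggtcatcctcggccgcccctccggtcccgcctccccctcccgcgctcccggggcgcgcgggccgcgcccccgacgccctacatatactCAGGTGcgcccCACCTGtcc
OCLN: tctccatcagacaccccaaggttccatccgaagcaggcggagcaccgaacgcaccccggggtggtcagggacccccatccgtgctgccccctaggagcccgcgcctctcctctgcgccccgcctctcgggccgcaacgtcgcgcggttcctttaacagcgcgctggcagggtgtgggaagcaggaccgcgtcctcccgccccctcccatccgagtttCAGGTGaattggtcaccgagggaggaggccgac
CRB3: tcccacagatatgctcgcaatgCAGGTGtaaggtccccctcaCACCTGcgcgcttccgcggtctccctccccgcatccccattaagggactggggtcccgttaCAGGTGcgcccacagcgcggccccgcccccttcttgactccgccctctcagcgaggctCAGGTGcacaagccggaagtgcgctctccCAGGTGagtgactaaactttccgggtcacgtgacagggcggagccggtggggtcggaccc

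A match is a description of the letters in the window and does not show that a factor binds there.

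In G12V the claudins, the adhesion molecule F11R and 2 of the 3 MARVEL genes were lower than in MCF10A, while the scaffold genes differed less or varied more between libraries. A gene was called where edgeR's quasi-likelihood test gave an adjusted p under 0.05 and the log2 fold change was beyond 0.5 in either direction. By this rule 6 of the 9 genes were lower (CLDN1, CLDN4, CLDN7, OCLN, MARVELD3 and F11R), none was higher and 3 did not pass. Over all 14376 genes tested, 5.95% were called lower and 5.01% higher. The median log2 fold change of the 9 genes was -1.86, against -0.00109 over all genes tested. For 8 of the 9 genes, all but TJP3, both G12V libraries lay below both MCF10A libraries, as did those of 27.4% of all genes tested.

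**Figure D1:**
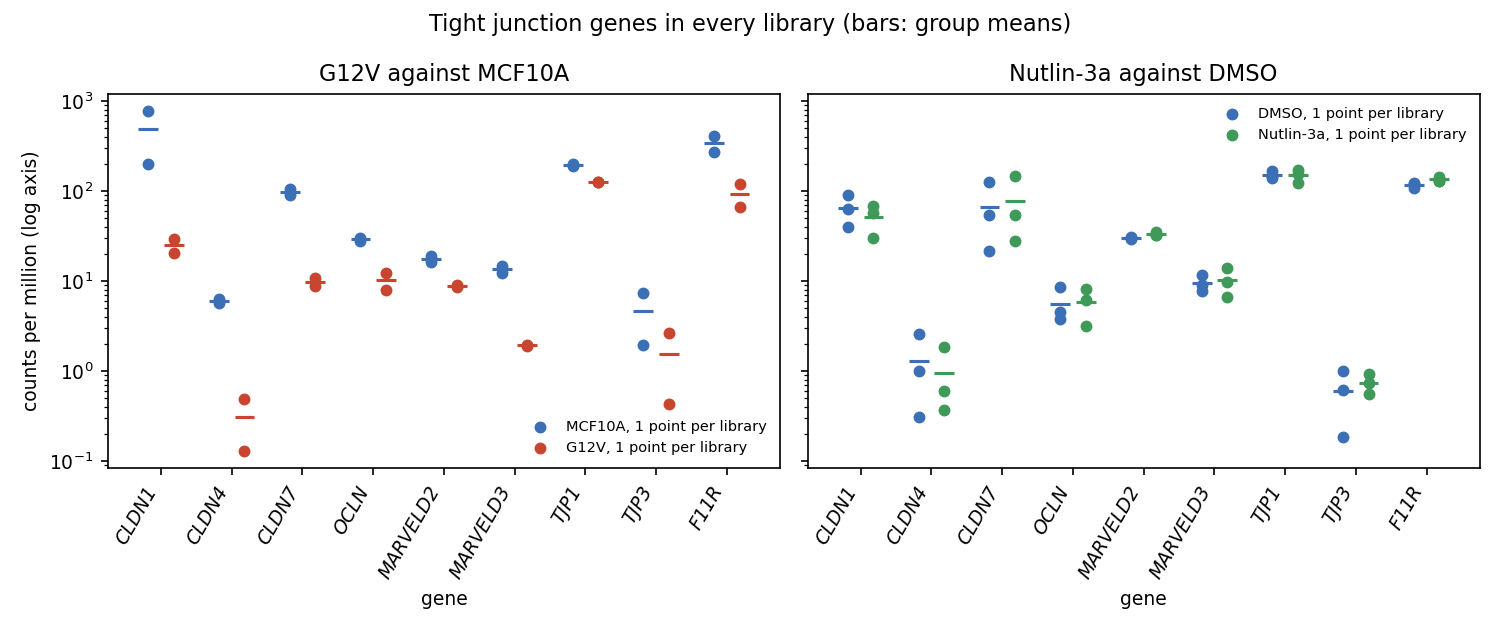
CPM on a log axis for each of the 9 genes in every library, with bars at the group means, for G12V against MCF10A (left) and Nutlin-3a against DMSO (right). In the left panel the 2 G12V points lie below the 2 MCF10A points for every gene but TJP3, and in the right panel the groups overlap for 7 of the 9 genes.

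The claudins differed most. CLDN1, a barrier-forming claudin (hg19 chr3:190023490-190040235), stood at 199.5 and 790.4 CPM in the MCF10A libraries and at 20.5 and 29.3 CPM in the G12V libraries. Both G12V libraries were far below both controls, although the controls themselves differed 3.96-fold, a spread wider than that of 98.4% of genes tested. The log2 fold change of CLDN1 was -4.31 (SE 0.69, 95% interval -6.00 to -2.63, edgeR quasi-likelihood adjusted p = 0.0149), and leaving out MCF10A replicate 2 gave -3.0 while leaving out MCF10A replicate 1 gave -4.97.

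CLDN4, a claudin that limits the passage of sodium (chr7:73245193-73247023), was measured at 5.64 and 6.39 CPM in MCF10A and at 0.128 and 0.491 CPM in G12V. These levels rest on 124 and 145 reads in MCF10A and on only 3 and 11 reads in G12V. Fitted over the replicates, the log2 fold change of CLDN4 was -4.27 (SE 0.59, 95% interval -5.71 to -2.82, edgeR adjusted p = 0.00971), and the pooled reads gave a level 19.7-fold lower in G12V with an exact 95% counting interval of 11.5-fold to 36.5-fold. Its replicates agreed closely in MCF10A and differed 3.82-fold in G12V.

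CLDN7, which lies along the lateral membrane as well as in the junction (chr17:7163222-7166512), had close replicates in both groups. It stood at 105 and 89.9 CPM in MCF10A and at 8.72 and 10.9 CPM in G12V, with no overlap. CLDN7 had a log2 fold change of -3.31 (SE 0.22, 95% interval -3.85 to -2.76, edgeR adjusted p = 0.00128). Of the claudin windows, only the CLDN7 window printed in part above held E-boxes, 5 in all, of which 4 lie in the printed stretch. Another window of CLDN7 (GRCh38.p14 chr17:7263164-7263463) held 0 E-boxes.

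Among the MARVEL genes the one that was lowest in G12V relative to its control was MARVELD3 (chr16:71660056-71670108), a regulator of kinase signalling at the junction. It stood at 12.5 and 14.6 CPM in MCF10A and at 1.97 and 1.87 CPM in G12V. The G12V libraries were nearly alike and well below the controls, with a log2 fold change of -2.81 (SE 0.30, 95% interval -3.56 to -2.07, edgeR adjusted p = 0.00511). OCLN, which encodes occludin (chr5:68788119-68853931), stood at 30.2 and 28.1 CPM in MCF10A and at 7.87 and 12.4 CPM in G12V. The groups did not overlap, and the log2 fold change was -1.52 (SE 0.29, 95% interval -2.23 to -0.81, edgeR adjusted p = 0.0259).

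MARVELD2, which encodes tricellulin, the sealing protein of corners where 3 cells meet, lies beside OCLN on the same strand (chr5:68710939-68737890). Its levels were 16.3 and 18.9 CPM in MCF10A and 8.94 and 8.52 CPM in G12V. The groups were apart, but the call was not made: the log2 fold change was -1.01 (SE 0.24, 95% interval -1.61 to -0.41) with an edgeR quasi-likelihood adjusted p of 0.0532. MARVELD2 passed with DESeq2 (adjusted p = 0.00986) and with edgeR's exact test (adjusted p = 0.0119).

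F11R, which encodes junctional adhesion molecule A (chr1:160965001-160991133), was among the most abundant of the 9 genes in counts. Its levels were 274 and 407 CPM in MCF10A and 67.1 and 121 CPM in G12V, so that the groups were apart although each varied between libraries. Its log2 fold change was -1.86 (SE 0.35, 95% interval -2.72 to -0.995, edgeR adjusted p = 0.0254).

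The scaffolds did not pass the test. TJP1, which encodes the zonula occludens protein ZO-1 (chr15:29991571-30261002), stood at 201 and 191 CPM in MCF10A and at 125 and 128 CPM in G12V. The difference in TJP1 was small and its replicates close, with a log2 fold change of -0.63 (SE 0.17, 95% interval -1.05 to -0.20, edgeR quasi-likelihood adjusted p = 0.0762), and it passed with DESeq2 (adjusted p = 0.0401) and with the exact test (adjusted p = 0.0451). TJP3, which encodes ZO-3, the scaffold found mainly in epithelia (chr19:3708335-3750811), stood at 1.95 and 7.36 CPM in MCF10A and at 0.428 and 2.68 CPM in G12V. The TJP3 groups overlapped, and the controls differed 3.76-fold, more than those of 98.3% of genes tested. The log2 fold change of TJP3 was -1.59 (SE 0.93, 95% interval -3.87 to 0.69, edgeR adjusted p = 0.362), and it ranged from -0.34 without MCF10A replicate 2 to -3.43 without G12V replicate 2, where the adjusted p was 0.0208.

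**Figure D2:**
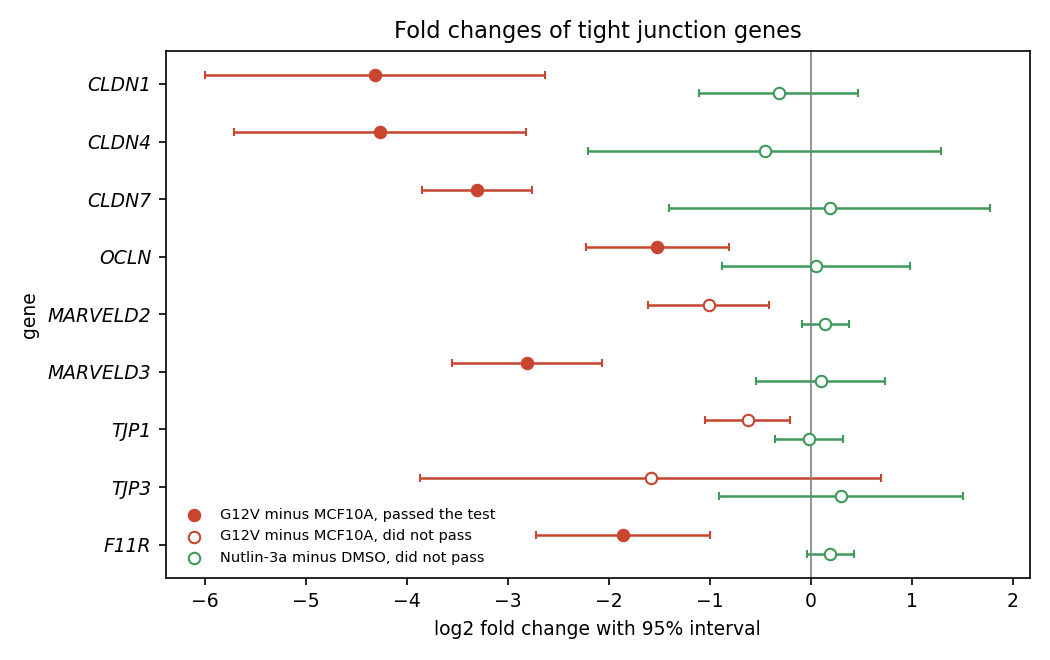
Log2 fold change of each gene with its 95% interval, G12V minus MCF10A (red) and Nutlin-3a minus DMSO (green). Filled points passed the test, open points did not. All 9 red points lie below 0 and the interval of TJP3 crosses it, while every green interval crosses 0.

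All 9 genes had a log2 fold change below 0 in G12V in each alternative normalization, filter, tool and left-out library that was run. The calls rested on the MCF10A replicate 1 library in the edgeR quasi-likelihood test: without it the single MCF10A library left was assumed to vary like the G12V libraries, and 0 of the 14883 genes tested and 0 of the 9 genes were called, with adjusted p from 0.0543 to 0.189 for the 6 genes named above. In that fit 2830 genes, 7 of the 9 among them, had an unadjusted p under 0.05, and DESeq2 on the same 3 libraries called 1489 genes, 6 of the 9 among them.

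The order of the 9 genes by level also differed between the groups. Levels were set per exonic length, as RPKM, the CPM divided by the gene's length in kilobases, on the exon union of each gene in GENCODE 44 carried over to GRCh37. In MCF10A, CLDN1 had the highest RPKM, 136 ± 115 (SD, n = 2), followed by F11R at 67.3 ± 18.5, CLDN7 at 39.1 ± 4.21 and TJP1 at 17.3 ± 0.619. CLDN1 and F11R overlapped between libraries, so their order was not resolved. By the length of 1 canonical transcript F11R at 59.1 and 87.7 RPKM also overlapped with CLDN7 at 67.9 and 58.3 RPKM. Below them came MARVELD2 at 3.28 ± 0.346, OCLN at 2.59 ± 0.133 and MARVELD3 at 2.13 ± 0.242 RPKM, whose order changed when the length of 1 canonical transcript was used. Then came CLDN4 at 1.28 ± 0.113 and TJP3 at 1.17 ± 0.963 RPKM, which overlapped. The place of CLDN4 depended on the length, since its exon union of 4699 bases is longer than the interval listed for its counts. By its canonical transcript of 1695 bases CLDN4 stood at 3.33 and 3.77 RPKM in the MCF10A libraries. By canonical length TJP3 was below it at 0.635 and 2.39 RPKM, and MARVELD2 at 3.68 and 4.27 RPKM overlapped with it.

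In G12V, F11R led with 18.6 ± 7.5 RPKM (n = 2) and TJP1 was second with 11.2 ± 0.163 RPKM, ahead of CLDN1 at 6.86 ± 1.72 and CLDN7 at 3.94 ± 0.626 RPKM. By the exon union these 4 did not overlap with their neighbours in the order. By canonical length F11R at 14.5 and 26.0 RPKM overlapped with TJP1 at 17.5 and 17.8 RPKM. CLDN1 at 5.94 and 8.50 RPKM then overlapped with CLDN7 at 5.66 and 7.09 RPKM. MARVELD2 at 1.63 ± 0.0550 RPKM and OCLN at 0.902 ± 0.287 RPKM followed, then TJP3 at 0.391 ± 0.401 and MARVELD3 at 0.303 ± 0.0104 RPKM, which overlapped. CLDN4 had the lowest mean RPKM, 0.0659 ± 0.0545. By canonical length its G12V libraries, at 0.0757 and 0.289 RPKM, overlapped with those of TJP3 at 0.139 and 0.870 RPKM.

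**Figure D3:**
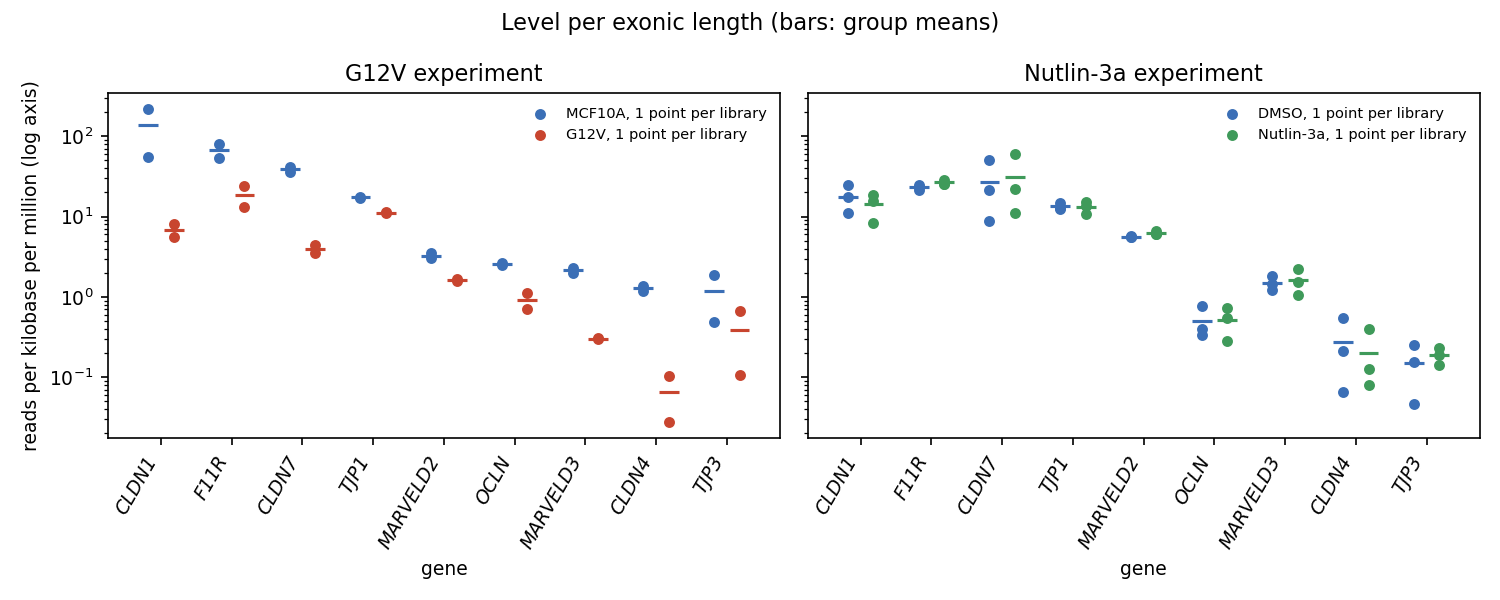
RPKM on a log axis for each gene in every library, with bars at the group means, in the G12V experiment (left) and the Nutlin-3a experiment (right). Genes are ordered by their MCF10A mean, from CLDN1 at 136 to TJP3 at 1.17, and the 2 experiments were normalized separately.

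Other genes of the junction were taken from a list of 61 in 6 roles, of which 44 had enough reads in the first experiment. Of these 44, 8 were lower in G12V and 2 higher, with a median log2 fold change of -0.46. Over all genes tested, 5.95% were called lower and 5.01% higher, with a median of -0.00109. The counts by role that follow rest on few genes and are to be read beside these shares. The angulins, which recruit tricellulin to the corners between 3 cells, were lower in all 3 members. LSR fell from 119.6 ± 25.9 to 26.5 ± 4.81 CPM (log2 fold change -2.17, edgeR adjusted p = 0.00562) and ILDR2 from 3.36 ± 0.771 to 0.543 ± 0.200 CPM (-2.62, adjusted p = 0.0197). ILDR1 was counted in 51 reads over the MCF10A libraries and in 4 over the G12V libraries, a level 13.1-fold lower with an exact 95% counting interval of 4.80-fold to 49.8-fold.

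Of 14 polarity genes, which place the junction along the apical and basal axis, 2 were lower. CRB3, the epithelial Crumbs protein, had 598 reads in MCF10A and 2 in G12V, 306-fold lower with an exact 95% counting interval of 84.4-fold to 2536-fold. LLGL2 fell from 69.6 ± 1.93 to 12.9 ± 3.57 CPM (log2 fold change -2.43, edgeR adjusted p = 0.00484). Of the 3 JAM relatives tested, JAM3 fell from 11.3 ± 0.410 to 0.647 ± 0.536 CPM (-4.11, adjusted p = 0.0108), while JAM2 and CXADR did not pass.

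Of 6 other claudins tested, CLDN23 fell from 3.36 ± 0.264 to 0.897 ± 0.119 CPM (log2 fold change -1.90, edgeR adjusted p = 0.0277) and CLDN12 rose from 31.0 ± 3.09 to 62.6 ± 8.94 CPM (1.01, adjusted p = 0.0313). Among 9 cytoplasmic scaffolds only MPDZ passed, rising from 33.7 ± 2.30 to 68.9 ± 1.31 CPM (1.03, adjusted p = 0.0194). The median log2 fold change was -0.09 over these scaffolds and -2.62 over the angulins. Among 9 junction-associated regulators AMOTL1, an angiomotin relative, fell from 207 ± 34.0 to 95.2 ± 10.2 CPM (-1.12, adjusted p = 0.0238). Without MCF10A replicate 1 none of these calls was made in the quasi-likelihood test, and without MCF10A replicate 2 the count was 5.

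**Figure D4:**
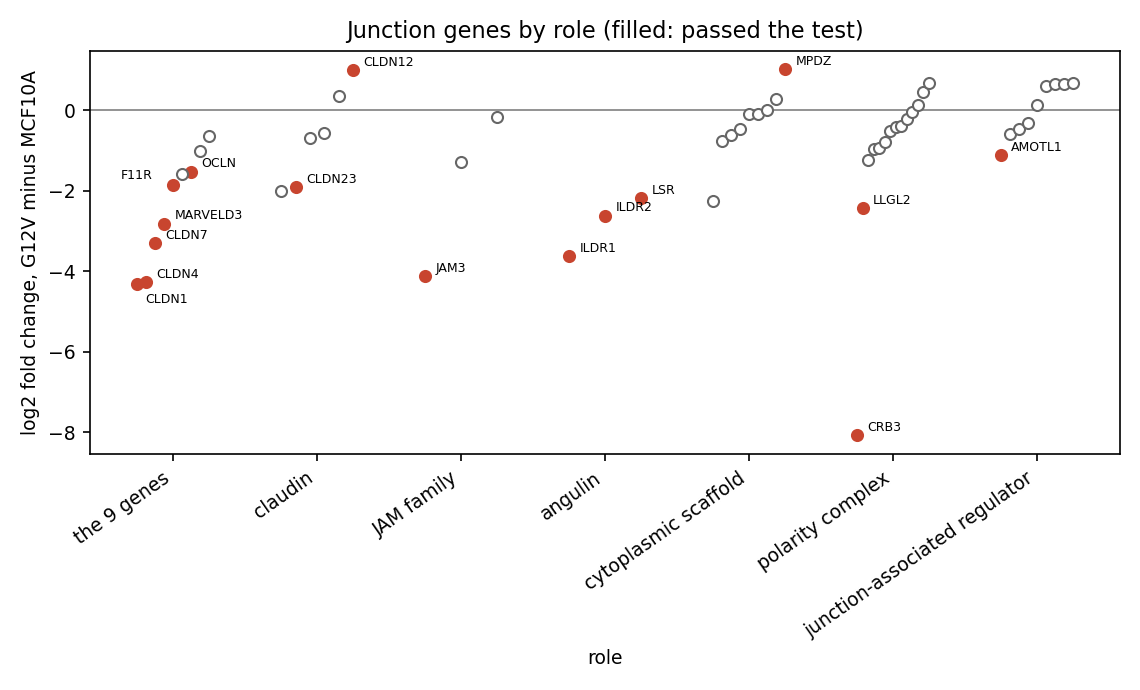
Log2 fold change, G12V minus MCF10A, of the 9 genes and of the 44 other junction genes tested, by role, with filled and named points for those that passed the test. The 3 angulins lie between -2.17 and -3.62, the scaffolds have a median of -0.09, and the point of CRB3 rests on 2 reads in G12V, so its fitted position depends on the prior count.

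Nutlin-3a was compared with DMSO to ask whether the same genes moved within 4 h of p53 stabilization. None of the 9 genes was called by edgeR's quasi-likelihood test, and none had an unadjusted p under 0.05, against 3.42% of all genes tested. None was called by DESeq2, by the exact test or with the replicate number as a block. Over all 13529 genes tested, 0.170% were called, and 1.22% with the block. In the edgeR fit with the block 3 of the 9 genes had an unadjusted p under 0.05, as did 1584 of all 13529 genes. The median log2 fold change of the 9 genes was 0.10, against 0.00659 over all genes tested.

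CLDN1 stood at 63.1, 39.9 and 90.2 CPM in DMSO replicates 1 to 3 and at 56.8, 30.3 and 68.2 CPM in the matching Nutlin-3a replicates. The groups overlapped, but within each replicate number the Nutlin-3a library was the lower one, with ratios of 0.901, 0.758 and 0.757. The log2 fold change of CLDN1 was -0.32 (95% interval -1.10 to 0.47), and with the replicate block it was -0.32 (95% interval -0.50 to -0.13, edgeR adjusted p = 0.103).

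CLDN7 stood at 54.0, 21.7 and 126 CPM in DMSO and at 54.9, 27.8 and 148 CPM in Nutlin-3a. Libraries of the same number were alike and the numbers differed 5.83-fold within DMSO, more than for 99.2% of genes tested. CLDN7 had a log2 fold change of 0.19 (95% interval -1.40 to 1.78), with a narrower interval of 0.00325 to 0.39 under the block (edgeR adjusted p = 0.413).

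CLDN4 was low throughout, at 2.54, 0.307 and 0.992 CPM in DMSO and at 1.85, 0.372 and 0.592 CPM in Nutlin-3a. Its log2 fold change of -0.46 had a 95% interval of -2.21 to 1.29, and with the replicate block the interval was -1.08 to 0.21 (edgeR adjusted p = 0.628). Both intervals included changes of either sign. The interval listed for CLDN4 in this table (chr7:73213872-73243696) ends before the one in the first table begins, so the exons counted may differ and no level of CLDN4 is compared between the experiments.

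Of the MARVEL genes, MARVELD2 stood at 30.6, 29.6 and 30.3 CPM in DMSO and at 35.2, 32.2 and 32.6 CPM in Nutlin-3a. All 3 Nutlin-3a libraries lay above all 3 controls, and the log2 fold change was 0.14 (95% interval -0.09 to 0.38). OCLN stood at 4.48, 3.80 and 8.58 CPM and at 6.10, 3.16 and 8.23 CPM (log2 fold change 0.05, 95% interval -0.88 to 0.98). MARVELD3 stood at 9.07, 7.79 and 11.6 CPM and at 9.85, 6.70 and 14.0 CPM (0.10, 95% interval -0.54 to 0.74). For OCLN and MARVELD3 the groups overlapped and the Nutlin-3a library was higher in some numbers and lower in others.

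F11R stood at 119.9, 110.0 and 125 CPM in DMSO and at 131, 130.2 and 145 CPM in Nutlin-3a. All 3 Nutlin-3a libraries of F11R were above the controls, with a log2 fold change of 0.19 (95% interval -0.04 to 0.43), an unadjusted p of 0.0889 and an edgeR adjusted p above 0.99. Within the replicate numbers the Nutlin-3a over DMSO ratios were 1.09, 1.18 and 1.16, and the interval with the replicate block was 0.03 to 0.36 (edgeR adjusted p = 0.297). MARVELD2 and F11R were thus the 2 of 9 genes whose groups were apart and higher, as were 3.70% of all genes tested.

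TJP1 stood at 141, 169 and 147 CPM in DMSO and at 174, 154 and 123 CPM in Nutlin-3a, overlapping fully (log2 fold change -0.02, 95% interval -0.35 to 0.31). TJP3 stood at 0.608, 0.184 and 0.992 CPM and at 0.739, 0.558 and 0.921 CPM (0.30, 95% interval -0.91 to 1.51). For both scaffolds the interval included differences in either direction. In DMSO the levels per length put CLDN7 at 27.0 ± 21.5, F11R at 23.3 ± 1.48, CLDN1 at 17.8 ± 6.93 and TJP1 at 13.5 ± 1.31 RPKM (n = 3), ranges in which each gene overlapped with its neighbour, and CLDN4 and TJP3, whose ranges overlapped, were at the low end, TJP3 at 0.150 ± 0.102 RPKM. Of the 61 other junction genes, 39 were tested and none was called or had an unadjusted p under 0.05, with a median log2 fold change of 0.0125.

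Levels of several of the 9 genes followed the replicate number in this experiment. In both treatments 8 of the 9 genes, all but TJP1, had their lowest level in replicate 2, a pattern chosen for description after the values were seen. The same held for 13.8% of all genes tested and for 7 of the 39 other junction genes tested. No member was lowest in replicate 1 of both treatments or in replicate 3 of both, against 21.2% and 21.4% of all genes tested. Within DMSO the highest level over the lowest was 8.29-fold for CLDN4, 5.39-fold for TJP3, 2.26-fold for CLDN1 and 2.25-fold for OCLN. It was smaller for MARVELD3 at 1.49-fold, F11R at 1.13-fold and MARVELD2 at 1.03-fold. In Nutlin-3a F11R was nearly tied at 130.8 and 130.2 CPM in replicates 1 and 2, and MARVELD2 at 32.2 and 32.6 CPM in replicates 2 and 3. Replicate 2 held only 5 and 6 reads of CLDN4, and 3 and 9 of TJP3, in DMSO and Nutlin-3a.

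Some epithelial markers were lowest in replicate 2 of both treatments as well, 5 of the 10 tested (EPCAM, CDH1, KRT5, KRT14 and KRT18), while others such as ITGA6 and TP63 were not. The summed level of the list, most of it KRT5 and ITGB4, was 7646, 6072 and 8422 CPM in DMSO replicates 1 to 3 and 8503, 6443 and 8726 CPM in Nutlin-3a, lowest in replicate 2 in both. CDH1 stood at 129.7, 95.7 and 219 CPM in DMSO and at 141, 99.0 and 204 CPM in Nutlin-3a. DCN, a fibroblast marker, followed another order, at 12.9, 109 and 94.5 CPM in DMSO and at 14.1, 137 and 115 CPM in Nutlin-3a. The summed fibroblast list followed DCN, from 24.8 to 120 CPM in DMSO and from 24.9 to 148 CPM in Nutlin-3a, lowest in replicate 1 of both. COL1A1, the only other fibroblast marker tested, was nearly flat at 11.7, 10.4 and 9.74 CPM in DMSO and 10.5, 10.5 and 9.02 CPM in Nutlin-3a. The part of these differences between cultures in the levels of the junction genes was not tested.

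**Figure D5:**
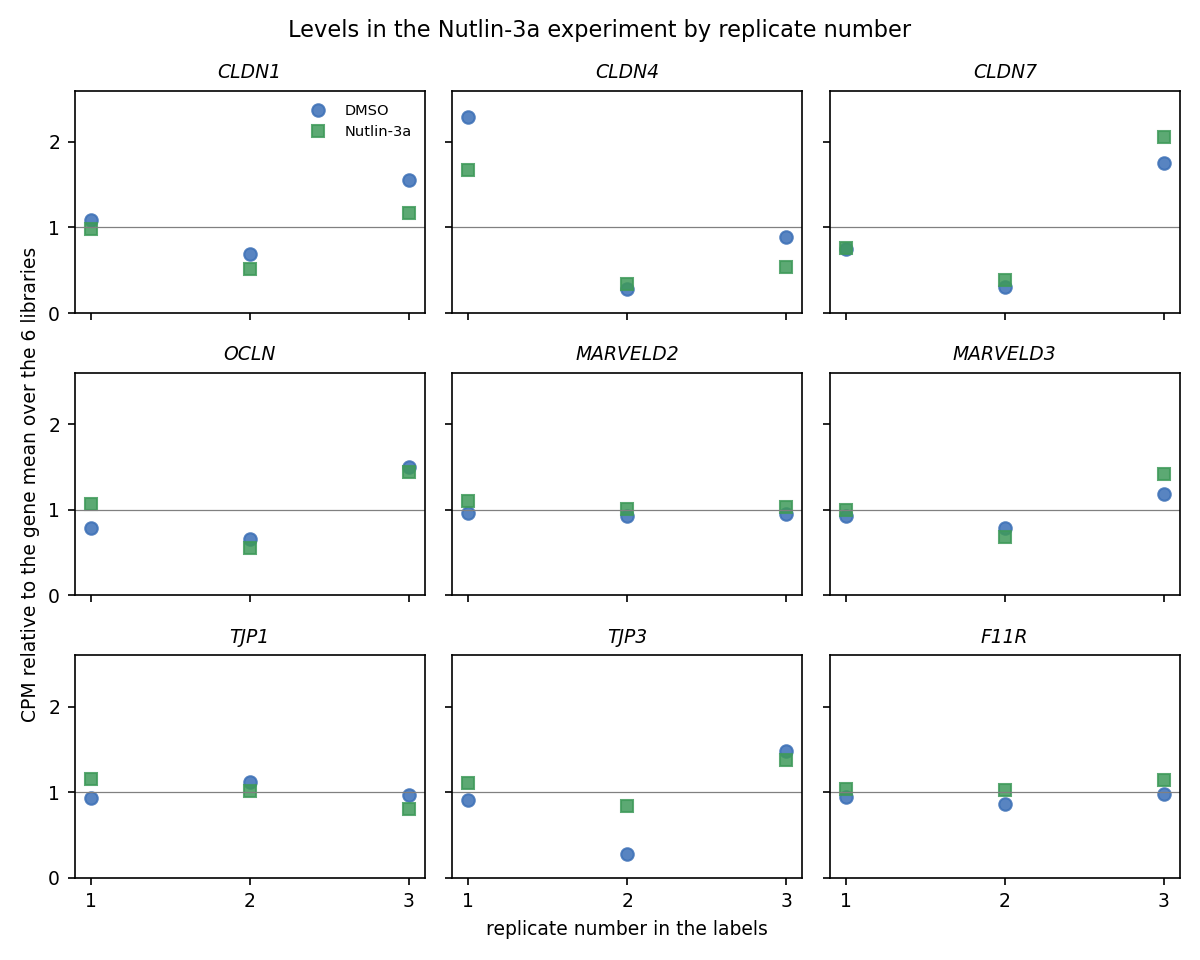
Level of each gene in each library of the Nutlin-3a experiment relative to its mean over the 6 libraries, by replicate number, with circles for DMSO and squares for Nutlin-3a. Both symbols are lowest at replicate 2 in every panel but that of TJP1, and the 2 treatments lie close together within a number for CLDN7.

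In the first experiment 4 of the 9 genes, CLDN1, CLDN4, TJP3 and F11R, were lower in replicate 1 than in replicate 2 of both groups, as were 37.1% of all genes tested. None was lower in replicate 2 of both groups, against 32.4% of all genes tested. Reads of neighbouring genes can enter some of these counts, since the strand setting of the counting is not given in the sources used here. CLDN7 overlaps ELP5, MARVELD3 overlaps PHLPP2 and TJP3 overlaps APBA3 on the opposite strand. On their own strand F11R overlaps a readthrough gene, CLDN7 another protein-coding gene and TJP1 a long non-coding RNA gene. OCLN and CLDN7 each have a pseudogene copy. The levels of all these members are uncertain to that extent.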

How the data were processed

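Poly(A) RNA of RIN above the authors' minimum was sequenced on an Illumina HiSeq. For alignment to hg19 the authors used TopHat, for counting reads per gene HTSeq, and for their tests edgeR. They deposited raw counts, 1 table per experiment, with the annotation and strand setting not given in the sources used here. Counts were tested as deposited with edgeR 4.0.16 in R 4.3.3, after filterByExpr and TMM scaling, with the quasi-likelihood test across all genes, Benjamini-Hochberg adjustment, a prior count of 0.125 and each experiment fitted alone. CPM used TMM-scaled totals. The fit was tested on simulated counts drawn without a shared effect of the replicate number, so that test does not cover such an effect. Labels call the libraries biological replicas. In the Nutlin-3a experiment same-numbered libraries deviated together (correlations 0.624, 0.603 and 0.639), so a replicate block was run beside the fit. DESeq2 1.42.0, edgeR's exact test, other scalings and filters and left-out libraries were the alternatives. Named genes were the 9 members, the called genes of the junction list with at least 1 CPM on average, and the label checks. ILDR1, JAM2, CXADR, DCN and COL1A1 were named after their values were seen. Members and lists were chosen with earlier results of these data known. Counting intervals cover counting error only. Python 3.11.15 and matplotlib 3.10.9 drew the figures. Some listed genes are not reported here.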

Additional observations from a re-analysis of the deposited data

How the results depend on the processing

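In G12V against MCF10A the count of all genes called was 1575, and became 2526 with the exact test, 4158 with the replicate block and 0 to 2129 with each library left out. The count among the 9 genes was 6 to 9 in every alternative with all libraries, and 0 to 7 with a library left out, the 0 being without MCF10A replicate 1. The median log2 fold change of the 9 genes lay between -2.78 and -1.50 with a library left out. The count among the other junction genes was 16 with the exact test, 26 with the block and 0 to 11 with a library left out. Whether same-numbered libraries of this experiment were handled together is not given in the sources used here. With 2 libraries a group the deviations mirror each other, so both pairs give the same correlation of 0.49. With the replicate block MARVELD2, TJP1 and TJP3 also passed (edgeR quasi-likelihood adjusted p 0.00263, 0.00347 and 0.00289).

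In Nutlin-3a against DMSO all genes called were 23, and became 99 without a filter, 88 with DESeq2, 83 with the exact test, 165 with the replicate block and 7 to 11 with a library left out. None of the 9 genes passed in any alternative. Of their log2 fold changes, 7 turned sign with a library left out: CLDN1 ranged from -0.57 to 0.00724, CLDN4 from -1.42 to 0.52, CLDN7 from -0.71 to 1.02, OCLN from -0.28 to 0.49, MARVELD3 from -0.20 to 0.32, TJP1 from -0.14 to 0.11 and TJP3 from -0.11 to 0.86. MARVELD2 and F11R stayed above 0. The causes of these changes were not tested beyond the smaller number of libraries. With 2 libraries a group, spread rests on few degrees of freedom, and CLDN4 and TJP3 rest on few reads.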
